A study of Mus musculus with 10 samples.

Results

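Potassium channel genes were read on 95 probe sets of the 35556 in the value table, each annotated with a single symbol that starts with Kcn. They stand for 92 of 19938 genes, of which 89 encode pore or auxiliary subunits or regulators and 3 are RNAs named for the strand opposite Kcnd3 or Kcnmb4. Gene expression was measured in both ventricles of 10 mice, 1 Affymetrix mouse gene array per mouse, as log2 RMA signals. Every mouse lacked PGC-1α (gene Ppargc1a), per the labels. By the source names all 10 also carried PGC-1bf/f, a floxed Ppargc1b gene (which encodes PGC-1β), together with MerCre, a recombinase that tamoxifen switches on, whereas the titles give the 5 controls as PGC-1a-/- alone and their genotype field calls PGC-1b unaffected. The 5 tamoxifen-labelled mice, titled PGC-1a-/-bf/f/MerCre, were injected at 2 months of age on 2 days with tamoxifen in sunflower seed oil (50 mg/kg per day), and the 5 vehicle-labelled mice with the oil only. Hearts were collected 1 month later, at 3 months. No promoter is named for MerCre in the sources used here. Tamoxifen, Cre activity and loss of PGC-1β cannot be told apart because they coincide. The comparison asks which potassium channel transcripts differ when PGC-1β is deleted in an adult heart that already lacks PGC-1α, a pair of coactivators known for driving mitochondrial genes.

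Potassium channels set the resting potential of a heart muscle cell and end its action potential. Pore subunits are voltage-gated (Kcna to Kcnd, Kcnh, Kcnq), inwardly rectifying (Kcnj), of the 2-pore-domain type that leaks at rest (Kcnk), or opened by calcium or sodium (Kcnma, Kcnn, Kcnt), and auxiliary subunits (Kcne, Kcnip, Kcnab, Kcnmb) change their gating or their number at the membrane. The mouse ventricle, which beats very fast, repolarises mainly through the transient outward current carried by Kcnd pores with Kcnip2 and through slowly inactivating currents such as that of Kcna5. The delayed rectifiers of Kcnh2 and of Kcnq1 with Kcne1 dominate in larger mammals, Kcnj2 and Kcnj12 hold the resting potential, and the acetylcholine-gated channel of Kcnj3 and Kcnj5 is best known from atria and pacemaker tissue.

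The deleted genes did not check the labels. Ppargc1b read 9.65 to 9.90 in the vehicle-labelled arrays and 9.93 to 10.15 in the tamoxifen-labelled ones, higher by 0.27 ± 0.061 (SE, n = 5 per group, limma adjusted p = 0.00529), and Ppargc1a, deleted in both groups, was higher by 0.39 ± 0.095 (adjusted p = 0.00814). The sources used here do not place either probe set relative to the deleted exons, so every direction rests on the labels. Working cardiomyocyte markers were bright, with Myh6, Tnnt2 and Tnni3 between 13.94 and 14.35 as group means. Array medians ran from 7.18 to 7.31, the highest being that of tamoxifen-labelled array 2. That array and vehicle-labelled array 4 stood apart for the channel family too: of the 95 probe sets, 35 had their highest value on vehicle-labelled array 4 and 25 on tamoxifen-labelled array 2. With 5 arrays a group, their number limits the precision, and in whole ventricle less RNA per cell and fewer cells of a type cannot be told apart.

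Many members were dim. A gene counted as dim on an array where its log2 signal was under 6.53, the level below which the dimmest 30% of all genes lay by their mean. Of the 95 probe sets, 50 were above it on all 10 arrays, 22 dropped below it on some, and 23 were dim on all arrays, with values from 4.70 to 6.48. The 23 were Kcnb2, Kcnc2, Kcnf1, Kcng3, Kcnh5, Kcnh7, Kcns2, Kcnv1 and 1 of 2 probe sets of Kcnh8 among the voltage-gated pores, and Kcnj1, Kcnj6, Kcnj9 and Kcnj16 among the inward rectifiers. To these came Kcnk18, Kcnu1, both probe sets of the large-conductance calcium-activated pore Kcnma1, and the auxiliary genes Kcne2, Kcne3, Kcnip1, Kcnip4, Kcnab3 and Kcnmb2. They include genes known mainly from neurons (Kcnc2, Kcnj6, Kcnj9) and kidney (Kcnj1, Kcnj16). A dim signal cannot show that a gene is silent, since the table holds no detection call. The filter used each gene's mean over all arrays and left 64 of the 92 genes in the test. Kcnh8, Kcnrg and Kcna6 lay just inside it, at means of 6.55, 6.58 and 6.59, and Kcnk5, Kcnmb4os1 and Kcnk10 just outside, at 6.52, 6.49 and 6.49.

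**Figure D1:**
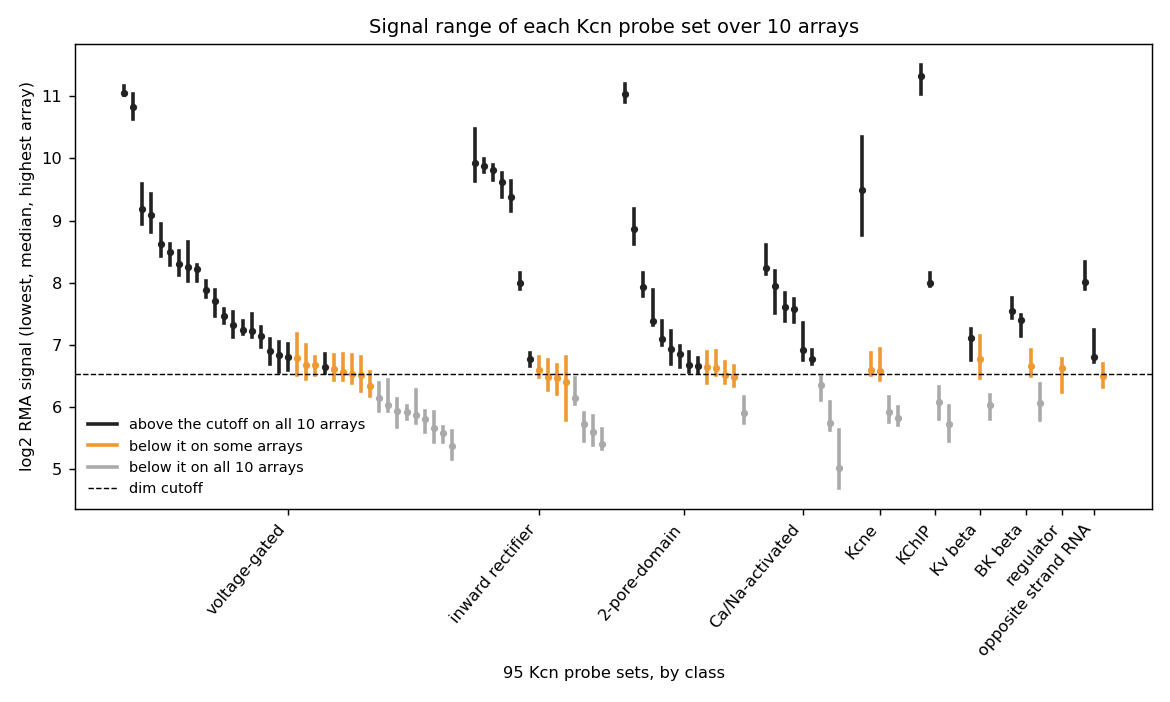
Signal of each of the 95 Kcn probe sets on the 10 arrays, grouped by class; each bar runs from the lowest to the highest array (log2 RMA signal), the point is the median, and the dashed line is the dim cutoff of 6.53. 23 probe sets lie below the line on every array, and Kcne1 has a wide bar, from 8.77 to 10.34.

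With the filter above, few channel genes differed between the groups, and most differences were small. Of the 64 tested genes 3 were higher in the tamoxifen-labelled arrays (Kcne1, Kcnk6, Kcnd2) and 6 were lower (Kcnj3, Kcnj2, Kcnq1, Kcnd3, Kcnip2, Kcnn1) at a limma adjusted p under 0.05. That is 14.1% of the family, against 21.9% of all 13957 tested genes; over all genes 13.6% were higher and 8.28% lower. The median difference was -0.041 on the log2 scale in the family and 0.014 over all genes, and 71.9% of the tested channel genes lay below 0 against 44.9% of all genes. That share was 54.7% without vehicle-labelled array 4 (44.5% of all genes), 78.1% without tamoxifen-labelled array 2 (53.4%) and 65.6% after quantile normalization (49.4%). In 6 of the 64 genes the values of the groups did not overlap, 9.38% against 16.6% of all genes: Kcne1, Kcnj3, Kcnj2, Kcnn1, Kcnj11 and Kcnd3os. After quantile normalization 3 were higher and 10 lower, while the lower genes among all tested went from 1155 to 1692. With the dimmest 50% of genes left out, 10 of 27 tested channel genes were called, a share above the 31.9% of all genes. Only Kcne1, Kcnj3 and Kcnj2 kept their call under all 20 alternatives of processing. Without tamoxifen-labelled array 5, which ended the most calls, Kcne1 and Kcnd2 were called higher and Kcnj2 and Kcnj3 lower. Of all genes 19.2% were called in that fit. Without tamoxifen-labelled array 4, 3 genes were lower, and 996 among all genes. Without array 2 of that group, 10 were lower, and 1649 among all genes. Without vehicle-labelled array 3 or 4 the higher gene was Kcne1 alone, with 1565 and 1491 higher among all genes, against 1897 with all arrays.

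**Figure D2:**
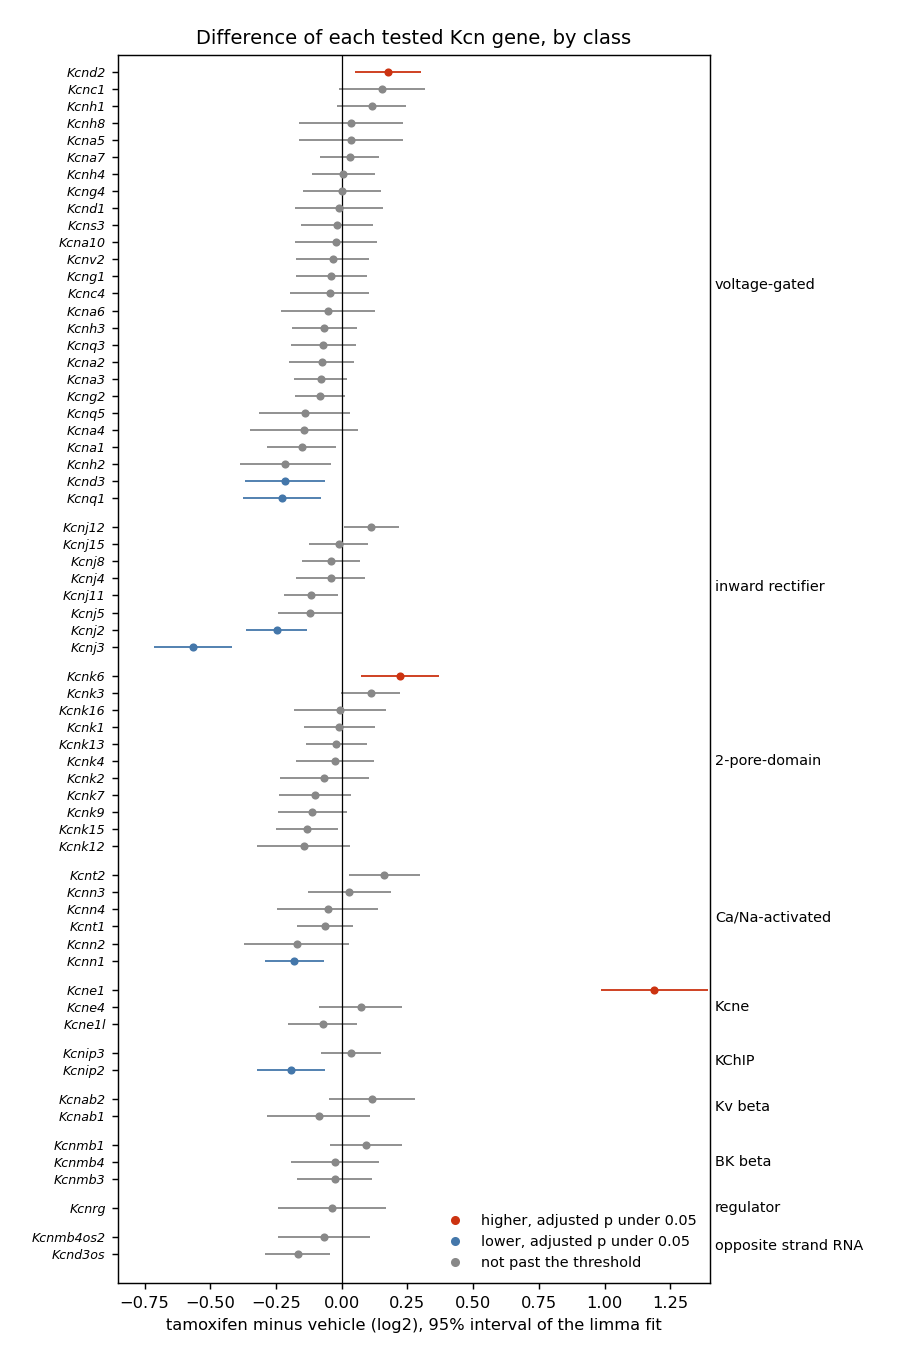
Difference between tamoxifen-labelled and vehicle-labelled arrays (log2) for the 64 tested Kcn genes, by class, with the 95% interval of the limma fit (n = 5 arrays per group). Kcne1, at 1.19, stands far to the right, Kcnj3, at -0.57, to the left, and the 55 genes that did not pass lie between -0.21 and 0.16.

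The largest difference among the 64 tested genes was that of Kcne1, the single-pass auxiliary subunit that slows the opening of Kcnq1 channels to give the slow delayed rectifier current. Its log2 signals were 9.0, 8.83, 9.17, 8.77 and 8.91 in vehicle-labelled arrays 1 to 5 and 10.34, 9.98, 10.29, 9.81 and 10.20 in tamoxifen-labelled arrays 1 to 5. All tamoxifen-labelled arrays lay above all vehicle-labelled ones, the closest pair 0.64 apart. The rise was 1.19 ± 0.096 (SE), a 2.28-fold difference, with an adjusted p of 1.78e-07. Kcnq1, the voltage-gated pore that Kcne1 joins, went the other way. It read 9.42, 9.14, 9.19, 9.14 and 9.08 in the vehicle-labelled arrays and 9.09, 9.05, 9.0, 8.88 and 8.81 in the tamoxifen-labelled ones, and tamoxifen-labelled array 1 lay just above vehicle-labelled array 5. Kcnq1 fell by 0.23 ± 0.070 (adjusted p = 0.0279), a call lost without vehicle-labelled array 1 or 3 or tamoxifen-labelled array 4 or 5 (adjusted p 0.0504 to 0.0758; 0.00597 to 0.0758 over all alternatives) and without the filter (0.0635). Its other known partners were dim or moved little. Kcne2 and Kcne3, dim on all arrays, read 5.76 to 6.16 and 5.71 to 6.0. Kcne4, an inhibitor of Kcnq1, had means of 6.56 ± 0.085 and 6.63 ± 0.17 (SD, n = 5), and the X-linked Kcne1l (Kcne5) had 6.66 ± 0.14 and 6.59 ± 0.049, with adjusted p of 0.539 and 0.449.

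**Figure D3:**
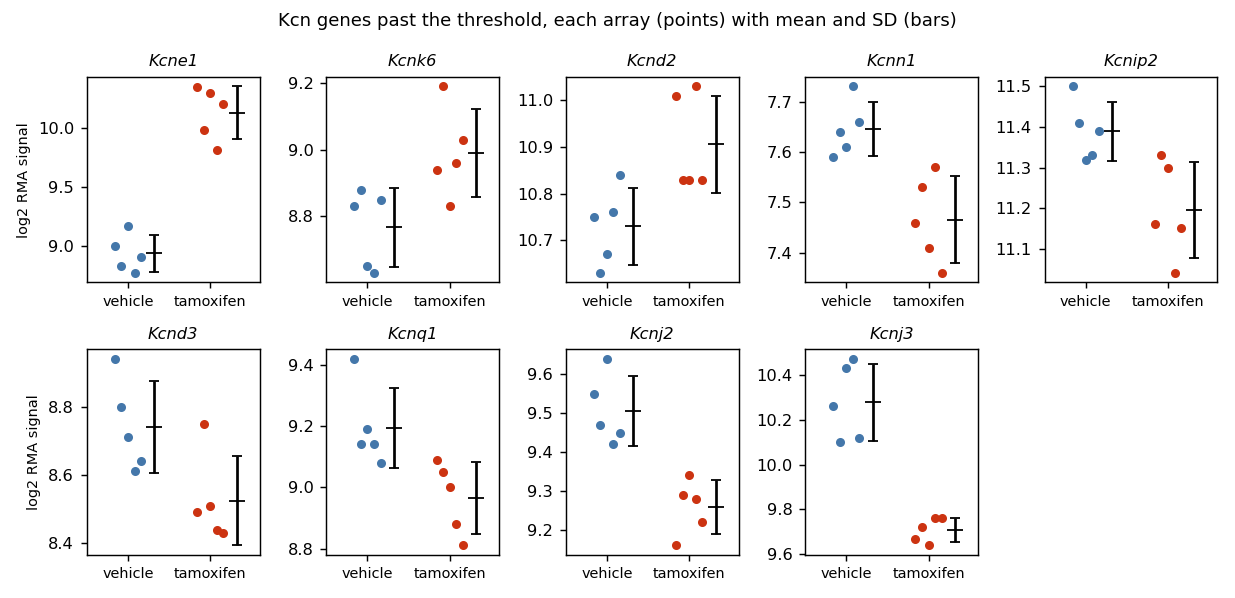
Log2 RMA signal of the 9 Kcn genes past the threshold on each array (points; vehicle-labelled in blue, tamoxifen-labelled in red) with the group mean and SD (n = 5 each); each panel has its own axis. Kcne1, Kcnn1, Kcnj2 and Kcnj3 show no overlap between groups, while the other 5 do.

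Kcnh2, the pore of the rapid delayed rectifier, had vehicle-labelled values of 9.59, 9.27, 9.33, 9.42 and 9.06 and tamoxifen-labelled values of 9.17, 9.15, 9.21, 9.12 and 8.95. Vehicle-labelled array 5 read lower than 4 of the tamoxifen-labelled arrays. The difference was -0.21 ± 0.081 (95% interval -0.39 to -0.042, adjusted p = 0.0716), nearly that of Kcnq1 but not called. Without vehicle-labelled array 5 it passed (-0.28, adjusted p = 0.0111), as it did with the replicate block (0.0169), after quantile normalization (0.0480), with a trended and robust prior (0.0468) and after the stricter filter (0.0471), with adjusted p from 0.0111 to 0.174 over all alternatives. Its relatives Kcnh1, Kcnh3, Kcnh4 and Kcnh8 did not pass either, with adjusted p from 0.213 to 0.957.

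Genes of the fast transient outward current, the main early repolarising current of the mouse ventricle, changed by little and in opposite directions. Kcnd2, its pore subunit Kv4.2, rose by 0.18 ± 0.059 (adjusted p = 0.0433): vehicle-labelled arrays read 10.75, 10.63, 10.67, 10.76 and 10.84, and tamoxifen-labelled arrays 11.01, 10.83, 10.83, 11.03 and 10.83. Tamoxifen-labelled arrays 1 and 4 were clearly higher, and the other 3 sat level with vehicle-labelled array 5. Kcnd3, the pore subunit Kv4.3, fell by 0.22 ± 0.072 (adjusted p = 0.0428), from 8.94, 8.80, 8.71, 8.61 and 8.64 to 8.49, 8.75, 8.51, 8.44 and 8.43, where tamoxifen-labelled array 2 lay among the vehicle-labelled values. Kcnip2, the calcium-binding auxiliary subunit KChIP2 that brings Kcnd pores to the membrane, fell by 0.19 ± 0.061 (adjusted p = 0.0308). Its values were 11.50, 11.41, 11.32, 11.33 and 11.39 against 11.16, 11.33, 11.30, 11.04 and 11.15, an overlap at tamoxifen-labelled array 2. All 3 calls were lost in several alternatives, among them the fit without the filter (adjusted p 0.0868 for Kcnd2, 0.0901 for Kcnd3 and 0.0665 for Kcnip2). Kcnd2 lost its call without vehicle-labelled array 1, 2, 3 or 4 or tamoxifen-labelled array 1 or 4 (adjusted p 0.0555 to 0.117) and after quantile normalization (0.113) or centring (0.0549), with 0.00972 to 0.117 over all alternatives. Kcnd3 lost its call without vehicle-labelled array 1, 2 or 3 or tamoxifen-labelled array 1, 3, 4 or 5 (0.0640 to 0.111; 0.00282 to 0.111 over all). Kcnip2 lost its call without vehicle-labelled array 1, 2 or 5 or tamoxifen-labelled array 1, 4 or 5 (0.0546 to 0.0879; 0.00411 to 0.0879 over all). Kcnd3os, an RNA from the strand opposite Kcnd3, read 8.05, 8.14, 8.09, 8.33 and 8.01 and then 7.97, 8.0, 7.94, 7.97 and 7.90, with no overlap, at -0.17 ± 0.059 (adjusted p = 0.0512). It passed with the replicate block (0.0351), array weights (0.0289), quantile normalization (0.0357), centring (0.0343) and the stricter filter (0.0313), and without vehicle-labelled array 5 (0.0342) or tamoxifen-labelled array 2 (0.0476), with 0.0289 to 0.117 over all alternatives. Kcna4, the pore of the slow transient outward current, read 7.18, 6.96, 6.94, 6.51 and 6.78 against 6.91, 6.66, 6.66, 6.80 and 6.63, overlapping, at -0.14 ± 0.097 (adjusted p = 0.328). Without vehicle-labelled array 4, its lowest, Kcna4 passed at -0.23 (adjusted p = 0.0479; 0.0479 to 0.651 over all alternatives). Dpp6 and Dpp10, further partners of Kcnd pores, were dim on all arrays.

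The stretches upstream of these 3 genes are shown because their transcripts, parts of 1 channel complex, did not move together. Each is the 250 bases before the RefSeq start on GRCm38.p6, 5′ to 3′ on the gene's strand, at chr6:21215096-21215345 (plus strand) for Kcnd2, chr3:105451640-105451889 (plus) for Kcnd3 and chr19:45816064-45816313 (minus) for Kcnip2. Capitals mark GGGCGG, the GC box bound by Sp1-type factors, or its reverse complement CCGCCC.
Kcnd2: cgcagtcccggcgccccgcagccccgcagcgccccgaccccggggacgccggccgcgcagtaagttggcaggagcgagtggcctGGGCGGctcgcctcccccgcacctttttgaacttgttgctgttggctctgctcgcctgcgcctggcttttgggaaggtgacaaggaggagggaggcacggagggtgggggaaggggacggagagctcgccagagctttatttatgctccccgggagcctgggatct
Kcnd3: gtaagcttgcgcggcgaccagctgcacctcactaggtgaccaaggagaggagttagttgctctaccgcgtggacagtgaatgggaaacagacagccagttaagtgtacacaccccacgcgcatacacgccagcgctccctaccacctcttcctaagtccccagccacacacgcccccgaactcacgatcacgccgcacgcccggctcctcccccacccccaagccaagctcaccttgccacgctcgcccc
Kcnip2: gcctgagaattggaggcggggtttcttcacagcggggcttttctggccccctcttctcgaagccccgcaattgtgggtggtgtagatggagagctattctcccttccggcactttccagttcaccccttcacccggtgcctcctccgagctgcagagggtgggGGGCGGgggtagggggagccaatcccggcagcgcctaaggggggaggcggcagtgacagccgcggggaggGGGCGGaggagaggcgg
Kcnd2 held 1 GC box, Kcnd3 held 0 and Kcnip2 held 2, and their GC content was 68.8%, 62.8% and 66.8%. GC boxes were found in 32.7% of the 32851 stretches of that length in the promoter table and in 42 of the 95 of this family (44.2%). AAGGTCA, the half-site bound by nuclear receptors of the ERR type that PGC-1 proteins coactivate, was in none of the 3 on either strand. It was in 3 of the 95 family stretches (3.16%) and in 4.08% of all. The promoter table held 70 of the 92 genes. These letter matches are descriptions and do not bear on factor binding elsewhere in the genes.

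Other voltage-gated pores mostly stayed within the spread of the arrays. In this class 1 of 26 tested genes was higher and 2 were lower, 11.5% against the 21.9% of all genes. Kcna5, the pore of a slowly inactivating current, read 8.29, 8.35, 8.14, 8.32 and 8.20 against 8.41, 8.66, 8.02, 8.21 and 8.17. The tamoxifen-labelled values spread over both sides of the vehicle-labelled ones, at 0.034 ± 0.093 (95% interval -0.16 to 0.23, adjusted p = 0.838). Kcna1 and Kcna2, Shaker-type pores, gave -0.15 ± 0.062 (adjusted p = 0.0918) and -0.076 ± 0.059 (adjusted p = 0.392). The second probe set of Kcna2 gave -0.14 in the fit of every probe set (adjusted p = 0.134), and Kcna1 passed without vehicle-labelled array 1 (adjusted p = 0.0448; 0.0448 to 0.214 over all alternatives). The modifier subunits Kcng2 and Kcnv2, which form channels only together with other pores, were not called. Kcng2 had means of 11.11 ± 0.051 and 11.03 ± 0.022 (SD, n = 5, adjusted p = 0.217) and was called lower after quantile normalization. Kcnv2 had 8.48 ± 0.13 and 8.45 ± 0.093 (adjusted p = 0.765). Of the Kv beta auxiliary subunits, Kcnab1 gave -0.088 ± 0.092 (adjusted p = 0.544) and Kcnab2 0.11 ± 0.077 (adjusted p = 0.325). Kcnab1 was called lower without tamoxifen-labelled array 2. Kcnip3, a second KChIP gene, gave 0.034 ± 0.054 (adjusted p = 0.711).

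Inward rectifiers held both of the called falls that every alternative kept, with 2 of 8 tested genes lower (25.0%, against 8.28% of all genes) and 0 higher. Kcnj2, the Kir2.1 pore that carries most of the resting inward rectifier current, read 9.55, 9.47, 9.64, 9.42 and 9.45 in the vehicle-labelled arrays and 9.16, 9.29, 9.34, 9.28 and 9.22 in the tamoxifen-labelled ones. The groups did not overlap, and the fall was 0.25 ± 0.055 (adjusted p = 0.00393), or 1.19-fold. Kcnj12, the Kir2.2 pore of the same current, read 7.91, 8.01, 7.94, 7.98 and 7.90 against 8.10, 8.15, 7.97, 8.04 and 8.04, overlapping at tamoxifen-labelled array 3, with a difference of 0.11 ± 0.049 (adjusted p = 0.118; 0.0439 after centring, 0.0439 to 0.226 over all alternatives). Its interval, 0.0078 to 0.22, lay on the other side of 0 from that of Kcnj2, -0.36 to -0.13. Kcnj4, the Kir2.3 pore, hovered at the dim cutoff, from 6.49 to 6.80, and gave -0.042 ± 0.061 (adjusted p = 0.685).

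Kcnj3 showed the deepest fall of the family. It encodes Kir3.1, which joins Kir3.4 from Kcnj5 in the acetylcholine-gated channel that G protein βγ subunits open to slow the heart. Kcnj3 read 10.26, 10.10, 10.43, 10.47 and 10.12 in the vehicle-labelled arrays and 9.67, 9.72, 9.64, 9.76 and 9.76 in the tamoxifen-labelled ones. Every tamoxifen-labelled value was at least 0.34 below the lowest vehicle-labelled one, and the tamoxifen-labelled arrays were the more alike (SD 0.054 against 0.17). The fall was 0.57 ± 0.070, or 1.48-fold (adjusted p = 2.20e-05). Kcnj5 read 9.76, 9.63, 9.69, 9.65 and 9.56 against 9.60, 9.63, 9.50, 9.57 and 9.38, overlapping, with a difference of -0.12 ± 0.057 (95% interval -0.24 to -0.00059, adjusted p = 0.145). After quantile normalization it passed (adjusted p = 0.0367; 0.0367 to 0.332 over all alternatives). The other Kir3 pores, Kcnj6 and Kcnj9, were dim on all arrays.

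The 250 bases before the RefSeq starts of Kcnj3, at chr2:55435720-55435969 (plus strand, GRCm38.p6), and Kcnj2, at chr11:111065914-111066163 (plus), are shown because these 2 inward rectifiers fell under every alternative. Capitals again mark the GC box.
Kcnj3: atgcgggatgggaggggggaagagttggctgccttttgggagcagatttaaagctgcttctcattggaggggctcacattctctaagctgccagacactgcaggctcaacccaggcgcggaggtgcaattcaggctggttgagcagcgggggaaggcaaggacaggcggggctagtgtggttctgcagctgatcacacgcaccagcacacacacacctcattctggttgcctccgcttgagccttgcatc
Kcnj2: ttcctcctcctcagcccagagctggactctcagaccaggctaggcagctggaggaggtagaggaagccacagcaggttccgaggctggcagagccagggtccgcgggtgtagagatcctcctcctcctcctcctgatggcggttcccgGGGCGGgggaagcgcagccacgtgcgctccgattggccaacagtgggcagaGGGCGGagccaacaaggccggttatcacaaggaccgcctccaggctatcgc
Kcnj3 held 0 GC boxes and Kcnj2 held 2, the nearer one starting 51 bases before the start. The half-site AAGGTCA was in neither, and GC content was 58.4% and 65.6%.

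Genes that control the Kir3 channel were read from a list of 21, of which 20 were measured and all 20 tested. Of these 3 were higher and 3 lower, 30% against 21.9% of all genes, with a median of 0.031. The 3 that fell were the muscarinic receptor, a G protein β subunit and its binding partner. Chrm2, the M2 receptor through which vagal acetylcholine acts, read 11.92 to 12.10 in the vehicle-labelled arrays and 11.66 to 11.83 in the tamoxifen-labelled ones, and fell by 0.26 ± 0.052 (adjusted p = 0.00167). Gnb5, an atypical G protein β subunit that pairs with RGS proteins, read 9.14, 9.01, 9.05, 8.86 and 8.91 against 8.46, 8.71, 8.52, 8.44 and 8.36. It fell by 0.50 ± 0.069 (adjusted p = 6.73e-05). Rgs6, the RGS protein that pairs with Gnb5 and speeds closure of the channel, read 8.57, 8.49, 8.56, 8.43 and 8.53 against 8.25, 8.37, 8.16, 8.24 and 8.34, and fell by 0.24 ± 0.053 (adjusted p = 0.00325). In all 3 genes the groups did not overlap, and the call was kept under all 20 alternatives. Of the 20 tested genes 4, these 3 and Gnai3, showed no overlap, where 16.6% of all genes had none. Gnai3, an inhibitory Gα subunit, rose by 0.17 ± 0.047 (adjusted p = 0.0135), and Rgs2, which acts on Gq, rose by 0.24 ± 0.070 (adjusted p = 0.0195). Gng10 rose by 0.18 ± 0.061 (adjusted p = 0.0475), but it lost its call without vehicle-labelled array 1, 3, 4 or 5 or tamoxifen-labelled array 1, 2, 4 or 5 (0.0685 to 0.105; 0.0101 to 0.127 over all alternatives). Gnb1 and Gnb2, the conventional β subunits, gave 0.052 ± 0.050 and 0.062 ± 0.046 and were not called.

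Kcnj3, Kcnj5 and Chrm2 are richer in atria than in ventricles, so atrial markers were read beside them. Of 10 listed, 9 were measured and 8 tested. At the threshold Nppa rose (0.42 ± 0.072, adjusted p = 0.000461) and 0 fell, 12.5% called against 21.9% of all genes. The median of the 8 was -0.059, and 2 of them lay above 0. Nppa also belongs to the stress programme of the ventricle. The myosin light chain gene Myl7 read 9.75, 9.75, 10.04, 9.77 and 9.70 in the vehicle-labelled arrays and 8.99, 10.03, 8.81, 9.64 and 10.54 in the tamoxifen-labelled ones. It thus varied widely within the tamoxifen-labelled group, and Sln did so too, with 7.03, 7.36, 7.06, 7.28 and 8.04. The summed level of the list, most of it from Nppa, was 13.76 to 13.95 and 13.84 to 14.38. Of the conduction-system markers 1 of 7 tested was lower, where 8.28% of all genes were. It was Hcn4, the pacemaker channel, which fell by 0.23 ± 0.060 (adjusted p = 0.0105). Isl1 and Shox2 of that list were dim on all arrays, and the part of atrial or conduction tissue in the falls of Kcnj3 and Chrm2 was not tested.

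**Figure D4:**
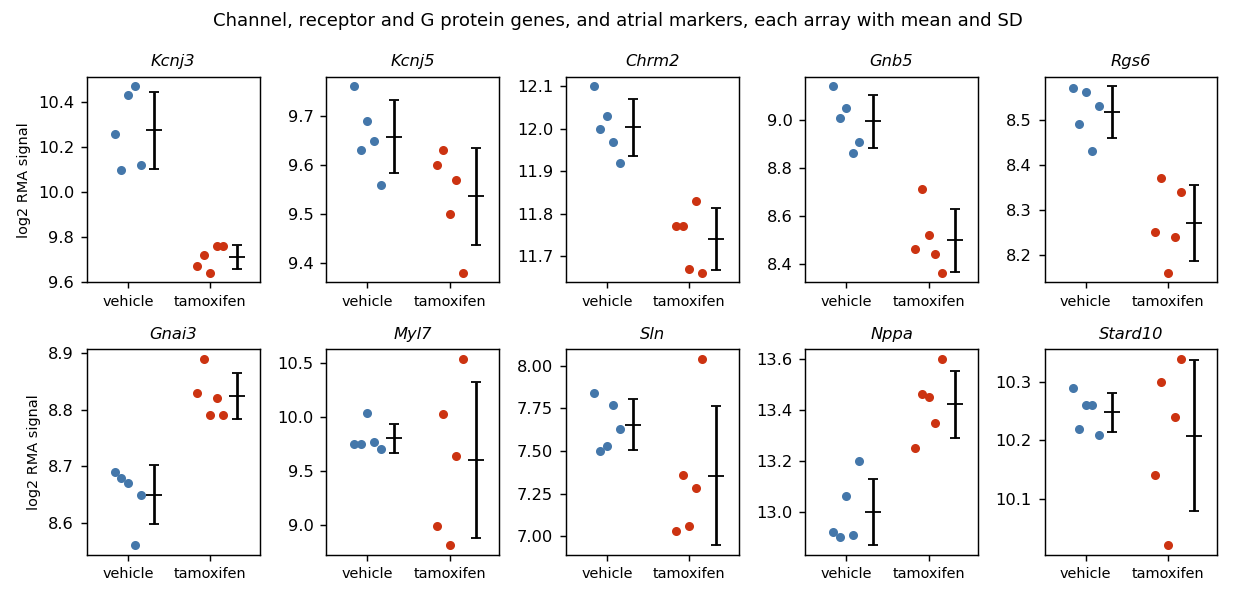
Log2 RMA signal on each array (points, blue vehicle-labelled, red tamoxifen-labelled; bars are mean and SD, n = 5) for the Kir3 pores Kcnj3 and Kcnj5, their controlling genes Chrm2, Gnb5, Rgs6 and Gnai3, and the atrial markers Myl7, Sln, Nppa and Stard10. Kcnj3, Chrm2, Gnb5, Rgs6, Gnai3 and Nppa show no overlap between groups, while Kcnj5, Myl7, Sln and Stard10 overlap. The 4 controlling genes shown are those without overlap among the 20 tested, where 16.6% of all genes had none.

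ATP-sensitive channels, which open when ATP runs low, showed no called gene. Kcnj11, the Kir6.2 pore of heart muscle cells, read 9.84, 9.88, 9.81, 9.90 and 9.86 in the vehicle-labelled arrays and 9.80, 9.65, 9.68, 9.78 and 9.79 in the tamoxifen-labelled ones. All tamoxifen-labelled values lay below all vehicle-labelled ones, by 0.01 at the closest, and the difference was -0.12 ± 0.048 (adjusted p = 0.0952; 0.0537 to 0.179 over all alternatives). Kcnj8, the Kir6.1 pore known from vascular smooth muscle and pericytes, read 9.98, 9.87, 9.90, 9.83 and 9.94 against 9.88, 9.99, 9.78, 9.84 and 9.83, at -0.040 ± 0.052 (95% interval -0.15 to 0.070, adjusted p = 0.639). The sulfonylurea receptors that regulate both pores gave 0.042 ± 0.060 for Abcc9 (adjusted p = 0.677) and 0.0060 ± 0.061 for Abcc8 (adjusted p = 0.96). Of the smooth muscle and pericyte markers read beside these, 2 of 10 were higher, where 13.6% of all genes were. They were Cnn1 (0.34 ± 0.070) and Acta2 (0.24 ± 0.071), and Acta2 lost its call without tamoxifen-labelled array 3 or 5 (0.0616 and 0.0656). The median of the 10 was 0.036, and their summed level was 14.09 to 14.17 against 14.13 to 14.31. The part of smooth muscle cells and pericytes in the Kcnj8 values was not tested.

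Among the 2-pore-domain channels 1 of 11 tested genes was higher, 9.09% against the 13.6% of all genes. Kcnk6, TWIK-2, a leak channel known from blood vessels and endolysosomes, read 8.83, 8.88, 8.65, 8.63 and 8.85 in the vehicle-labelled arrays and 8.94, 9.19, 8.83, 8.96 and 9.03 in the tamoxifen-labelled ones. It rose by 0.22 ± 0.070 (adjusted p = 0.0324), with an overlap at tamoxifen-labelled array 3. Its call was lost without vehicle-labelled array 3 or 4 or tamoxifen-labelled array 2 or 5 (0.0672 to 0.0867), and without the filter (0.0716). Without vehicle-labelled array 4 and tamoxifen-labelled array 2 together the value was 0.14 (adjusted p = 0.123), with 0.00724 to 0.123 over all alternatives. Macrophage markers were higher in the same arrays, 7 of 10, with summed levels of 12.46 to 12.66 and 12.69 to 12.97, and their part in the Kcnk6 rise was not tested. Kcnk3, the acid-sensitive leak channel TASK-1 of heart muscle, read 11.06, 11.03, 11.00, 10.93 and 10.90 against 11.11, 11.19, 11.03, 11.00 and 11.14, at 0.11 ± 0.053 (adjusted p = 0.156). The stretch-sensitive Kcnk2, TREK-1, read 6.75 to 7.23 and 6.70 to 7.03, at -0.066 ± 0.080 (adjusted p = 0.614). The remaining 8 tested genes of the class gave adjusted p from 0.107 (Kcnk15) to 0.96 (Kcnk16). Kcnk15 was called lower with array weights, and Kcnk15 and Kcnk9 without tamoxifen-labelled array 2.

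Of the channels opened by calcium or sodium, 1 of 6 tested genes was lower, where 8.28% of all genes were. Kcnn1, a small-conductance calcium-activated pore (SK1), read 7.59, 7.64, 7.61, 7.73 and 7.66 in the vehicle-labelled arrays and 7.46, 7.53, 7.41, 7.57 and 7.36 in the tamoxifen-labelled ones, with no overlap. It fell by 0.18 ± 0.053 (adjusted p = 0.0215), and lost its call without vehicle-labelled array 4 (0.0521) or tamoxifen-labelled array 5 (0.0606; 0.00776 to 0.0606 over the 19 alternatives that tested it). Kcnn2 (SK2), best known in atria, read 8.19, 8.05, 8.08, 7.97 and 7.66 against 7.95, 7.95, 7.83, 7.84 and 7.52. Array 5 was the lowest in both groups, and the difference was -0.17 ± 0.094 (adjusted p = 0.216). Kcnn2 passed without vehicle-labelled array 5 (-0.25, adjusted p = 0.0377) and with the replicate block (0.0200; 0.0200 to 0.478 over all alternatives). Kcnn3 (SK3) read 7.39, 7.65, 7.60, 7.83 and 7.59 against 7.53, 7.81, 7.62, 7.55 and 7.69, with the groups fully overlapping, at 0.028 ± 0.074 (adjusted p = 0.833). Kcnt2, a sodium-activated pore, gave 0.16 ± 0.064 (adjusted p = 0.0837). It was called higher after quantile normalization or centring and without tamoxifen-labelled array 3. The probe sets of Kcnma1 read 6.11 to 6.48 and 4.70 to 5.63, below the cutoff everywhere, while the BK beta subunit Kcnmb1 of smooth muscle gave 7.52 ± 0.088 and 7.61 ± 0.13 (SD, n = 5, adjusted p = 0.342).

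**Figure D5:**
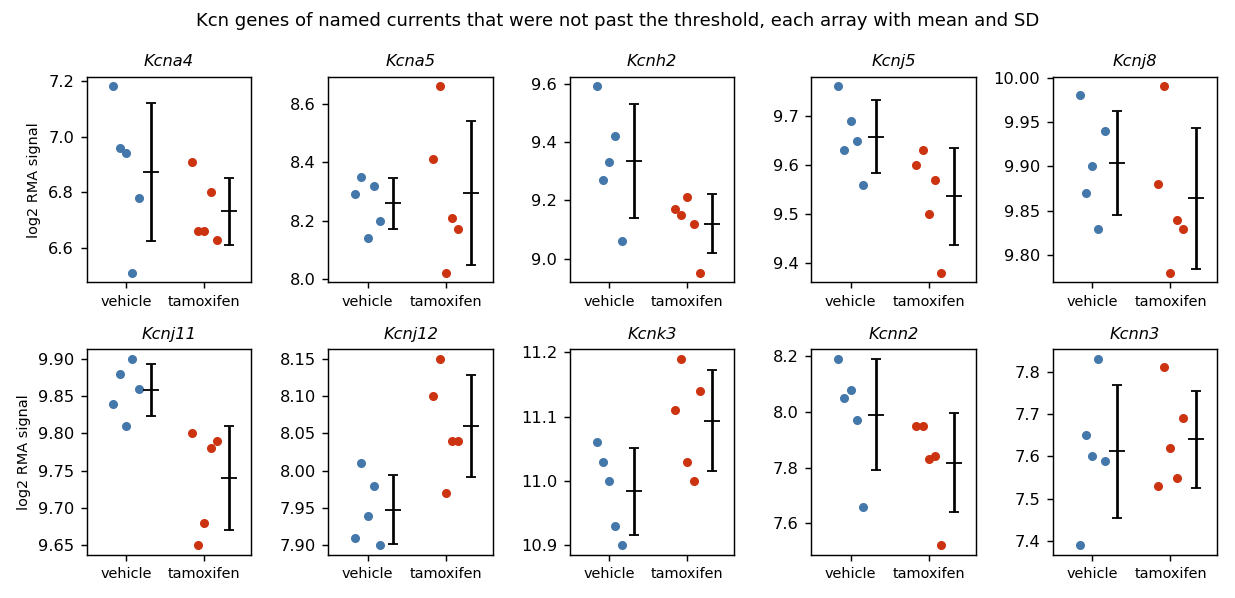
Log2 RMA signal on each array (points, blue vehicle-labelled, red tamoxifen-labelled; bars are mean and SD, n = 5) for 10 genes of named cardiac currents that did not pass the threshold. Kcnj11 is the only one of these panels without overlap, with the groups 0.01 apart; Kcnh2 and Kcnn2 have a low vehicle-labelled array 5.

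Partners and regulators of the cardiac potassium currents outside the Kcn names were read from a list of 36 genes, of which 30 were tested. Of these 6 were higher and 2 lower, 26.7% against the 21.9% of all genes, with a median of 0.041. Nedd4, a ubiquitin ligase that removes ion channels from the membrane, rose by 0.26 ± 0.048 (12.47 to 12.56 against 12.71 to 12.85, adjusted p = 0.000972). Nedd4l, also on the list, gave -0.008 ± 0.053 (adjusted p = 0.938). Cav3, the muscle caveolin that holds channels in caveolae, rose by 0.39 ± 0.072 (8.40 to 8.67 against 8.83 to 9.19, adjusted p = 0.000993), and Camk2d, the calmodulin-dependent kinase of the heart, by 0.27 ± 0.050 (11.37 to 11.52 against 11.62 to 11.78, adjusted p = 0.00104). The transcription factor gene Tbx20 rose by 0.25 ± 0.057 and Actn2, which anchors channels at the Z-disc, by 0.18 ± 0.044. Flna, filamin A, rose by 0.19 ± 0.063 (adjusted p = 0.0417), a call lost without vehicle-labelled array 1, 2 or 4 or tamoxifen-labelled array 1, 2 or 5 (0.0502 to 0.0985; 0.0137 to 0.113 over all alternatives). Those that fell were Hcn4, counted above among conduction markers, and Rnf207, a RING finger protein that acts on Kcnh2 (-0.20 ± 0.065, adjusted p = 0.0419). Rnf207 lost its call without vehicle-labelled array 1, 3 or 5 or tamoxifen-labelled array 1, 3 or 4 (0.0638 to 0.110) and with the replicate block (0.06; 0.00828 to 0.110 over all). The count of lower genes was 1 without vehicle-labelled array 1 or 3 or tamoxifen-labelled array 1, 3 or 4. Irx3, Irx4 and Irx5, homeobox factors that shape the gradient of the transient outward current across the wall, gave 0.11 ± 0.065, 0.00 ± 0.063 and 0.040 ± 0.059, and none passed.

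The sodium-potassium pump, which restores the gradient that these channels use, was measured through 6 of 9 listed genes. The β1 subunit Atp1b1 fell by 0.16 ± 0.053 (adjusted p = 0.0410), while the β3 subunit Atp1b3 rose by 0.20 ± 0.051 (adjusted p = 0.0119) and Fxyd5, a pump regulator, by 0.30 ± 0.060 (adjusted p = 0.00180). The fall of Atp1b1 lost its call without vehicle-labelled array 1, 3 or 4 or tamoxifen-labelled array 1, 4 or 5 (0.0523 to 0.102; 0.00385 to 0.102 over all alternatives). Fxyd1, phospholemman, the main cardiac regulator, gave 0.014 ± 0.048 (adjusted p = 0.874).

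Markers of other cells moved in part in the same arrays; of all tested genes 13.6% were higher and 8.28% lower. Fibroblast markers were higher in 7 of 10 (median 0.20, summed level 14.33 to 14.39 against 14.48 to 14.62), led by Mfap5 at 0.44 ± 0.067. Macrophage markers were higher in 7 of 10 (median 0.28), led by Cd68 at 0.40 ± 0.071. Over all alternatives these counts were 4 to 8 and 6 to 9, with 1424 to 2458 genes higher among all. The fibroblast marker Col1a1 (adjusted p = 0.0488) lost its call in 11 of 20 alternatives. Endothelial markers were higher in 1 of 10 (Cldn5, 0.35 ± 0.092), and 1 of 10 working cardiomyocyte markers was lower (Ryr2, -0.16 ± 0.049), with summed levels of 17.20 to 17.23 and 17.23 to 17.25. Schwann cell markers were lower in 1 of 7 tested (Erbb3, -0.40 ± 0.074). Of 4 neuronal and 3 T and B cell markers tested 0 were called, and Dbh, Snap25, Syt1 and Tubb3 of the neuronal list were dim on all arrays. Skeletal muscle markers were higher in 2 of 6 tested, Acta1 (1.08 ± 0.067) and Tnni2 (0.21 ± 0.049), and lower in 1, Myod1 (-0.15 ± 0.050), with summed levels of 12.83 to 13.19 and 14.01 to 14.10 that Acta1 dominates. The other 3 tested, Actn3, Myh2 and Tnnt3, gave 0.11 ± 0.066, -0.062 ± 0.073 and -0.008 ± 0.074 and were not called. Myh1, Myh4 and Pvalb, further skeletal muscle genes, were dim on all arrays, whereas Acta1 was bright in both groups, from 12.63 to 14.01. Which cells the Acta1 signal came from was not tested. The call of Ryr2 was lost without vehicle-labelled array 1, 3 or 5 or tamoxifen-labelled array 5 (adjusted p 0.0514 to 0.0644). That of Myod1 was lost without vehicle-labelled array 2, 3 or 4 or tamoxifen-labelled array 3, 4 or 5 (0.0610 to 0.0872). Whether any of these cells contributes to the rise of Kcne1 was not tested.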

How the data were processed

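The deposited values are log2 signals of Affymetrix mouse gene arrays, made by the authors; the submitters' processing notes name RMA and Expression Console 1.1; 450 ng of total RNA per mouse was used, per the labels' protocols. RMA corrects background, normalizes arrays to each other and summarises probes, which compresses low signals. Of 35556 probe sets, 21789 had 1 gene symbol, 1621 several and 12146 none; 0 of those with several named a Kcn gene. All 95 member identifiers matched a RefSeq gene table of GRCm38.p6 with the same symbol. A gene was read by its probe set with the highest mean, and the dimmest 30% of 19938 genes by mean over all arrays were left out, so 13957 were tested. Groups came from the labels. The fit was limma 3.58.1 in R 4.3.3 (lmFit, eBayes, two-sided, no covariate), with Benjamini-Hochberg adjustment over all tested genes and a threshold of 0.05; values after ± are SE of the difference or SD of a group, as stated, and intervals are 95%. A summed marker level is the log2 of the summed linear signals of the list's measured genes. The members, lists and tests were chosen with earlier results of these data known. The rule for named genes gives array values for every Kcn gene past the threshold or of a named cardiac current, and other genes by range or count; companion genes are named where called, or as a pathway's known parts after their values were seen. The fit was tested on simulated data. Other settings tried were a block for replicate number, another prior, array weights, quantile normalization, centring, other filters, other uses of probe sets, each array left out, and vehicle-labelled array 4 with tamoxifen-labelled array 2 left out at once, a choice made after seeing the data. Whether mice were littermates is not given, and p-values measure the spread between these mice. Figures used matplotlib 3.10.9 in Python 3.11.15.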

Additional observations from a re-analysis of the deposited data

Results flagged for a closer look

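In 14 of 212 groups of 5 arrays checked, 1 array lay far from the other 4 by Dixon's ratio (over 0.71); chance gives about 1 in 20 such groups. Tamoxifen-labelled array 2 was the high value in 5 of them: Kcnd3 (8.75 against 8.43 to 8.51), Kcne4 (6.94), Kcng2 (11.07), and outside the family Atp1b3 (11.66) and Mfap5 (11.02). Vehicle-labelled array 4 was the high value for 3 channel genes: Kcna3 (8.02 against 7.88 to 7.90), Kcng1 (8.44 against 8.30 to 8.32) and Kcnk15 (8.15). Low values were those of Kcna1 on tamoxifen-labelled array 3 (7.46), Kcnab2 on vehicle-labelled array 5 (6.76), Kcnn2 on tamoxifen-labelled array 5 (7.52) and Cldn5 on tamoxifen-labelled array 3 (9.65). Acta2 was high on vehicle-labelled array 3 (12.94) and Myod1 on tamoxifen-labelled array 1 (6.93).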

How the results depend on the processing

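The calls of Kcne1, Kcnj3, Kcnj2, Chrm2, Gnb5 and Rgs6 kept their direction and their side of the threshold under all 20 alternatives, and no call of a named gene changed sign under any of them. Leaving out 1 array at a time gave 1 to 4 channel genes higher and 2 to 10 lower (3 and 6 with all arrays), and 1 to 3 partner genes lower. Over all genes the same fits gave 1491 to 1943 higher and 938 to 1649 lower (1897 and 1155 with all arrays). Quantile normalization gave 10 channel genes lower, and 1692 over all genes. With no filter, by gene or by probe set, 1 channel gene was higher and 4 were lower, and 1 partner gene was lower. Over all features 12.2% were then called by gene and 12.8% by probe set, against 21.9% with the filter. Kcnd2, Kcnd3, Kcnip2, Kcnk6 and Kcnq1 lost their calls (adjusted p 0.0619 to 0.0901). Kcng3, dim on all arrays, then counted among the lower channel genes (-0.24, adjusted p = 0.0392 over all probe sets). Array weights gave 1784 genes lower over all genes, against 1155, and 4 partner genes lower. The cause of these moves was not tested. The replicate numbers shared by the groups were checked as pairs: same-numbered arrays deviated together with correlations of 0.037 to 0.20, over 0.1 in 3 of 5 pairs, and 7 of 10 arrays correlated best with their own number. This is a hint of pairing from the data, not from the labels; it did not reach the bar of over 0.1 in every pair, and the block was kept as an alternative. With the replicate block 3 channel genes were higher and 9 lower, all 9 called genes among them, joined by Kcnd3os, Kcnh2 and Kcnn2. Of all genes 25.2% were called with the block, against 21.9% without it. Without vehicle-labelled array 4 and tamoxifen-labelled array 2 together, 8 channel genes were called, and 22.3% of all genes. Low signals limit what can be said of the 28 channel genes left out of the test.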
